A study of Mus musculus with 10 samples.

Results

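The 42 genes described here serve the cell cycle, and they were picked out by matching gene symbols. The list was chosen with earlier results of these data known. It holds 14 genes that work in S phase, when DNA is copied, and 28 that work in mitosis, from the mitotic cyclins to the motors of the spindle. All 42 were found among the 55487 genes of the table, and all 42 passed the filter on low counts that left 18957 genes for testing. RNA was sequenced from microglia, the resident macrophages of the retina, in 3 littermate control mice (Control), 3 mice at 4 weeks after streptozotocin (4wk STZ) and 4 mice at 8 weeks after it (8wk STZ). Streptozotocin is a toxin of pancreatic beta cells that makes mice diabetic. All 3 groups carried the genotype Cx3cr1GFP/+, in which a green fluorescent protein gene takes the place of 1 copy of the fractalkine receptor gene, so the controls carried this knock-in too. Viable GFP-positive cells were sorted from the pooled retinas of each animal with no other marker named in the labels, so the gate can also hold other myeloid cells that use this promoter. The labels give 1 control set, and they give neither the animals' ages nor a library batch. A difference in age between the groups and the effect of the treatment cannot be told apart here. Each library is 1 animal. A p-value sets a difference between group means against the spread between animals, estimated over all 3 groups with information shared between genes.

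A cell enters S phase when cyclin E and its kinase release the E2F transcription factors, which switch on the genes for the replication helicase and for nucleotide supply. It enters mitosis when cyclins A and B activate the kinase Cdk1, and it leaves mitosis when the anaphase-promoting complex (APC/C) marks those cyclins for destruction. Microglia renew themselves slowly by division in the healthy retina and divide more after injury. Transcripts of S phase genes are also kept at a low level in many cells that are not dividing, while those of mitotic genes are largely confined to cells in late S phase, G2 and mitosis.

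The promoters of both groups are shown first, with the matches to short motifs that were searched in them. Promoters of late cell cycle genes often hold a cell cycle genes homology region (CHR), searched here as TTTGAA or TTCGAA, and promoters of S phase genes often hold an E2F site, searched as TTTCCCGC, TTTCGCGC, TTTGCCGC or TTTGGCGC. The CCAAT box was searched as CCAAT. Each was searched on both strands in the window from 250 bases before to 50 bases after the transcript start, as given by RefSeq on GRCm38.p6, and 34 of the 42 members had a window. Aurkb, Ccna2, Ccne2, Cdca2, Foxm1, Kif20a, Mcm4 and Tpx2 had none. The sequences below run 5′ to 3′ on the strand of the gene and have each CHR or E2F match in capitals. Fbxo5 (chr10:5805456-5805485, minus strand) is shown over 30 bases around its start, all of them exonic in the GENCODE vM21 annotation, because it had the smallest p among the members at 8 weeks. Top2a (chr11:99024180-99024389), Mki67 (chr7:135716370-135716579), Cdk1 (chr10:69352913-69353112) and Ccnb2 (chr9:70421545-70421754), all on the minus strand, stand for the mitotic members. Mcm5 (chr8:75109309-75109518, plus strand), Mcm6 (chr1:128359696-128359905, minus strand) and Rrm2 (chr12:24708054-24708263, plus strand), which has no match to capitalise, stand for the S phase members.
Fbxo5: tctgttctgatttgggcaccaaaTTCAAAg
Top2a: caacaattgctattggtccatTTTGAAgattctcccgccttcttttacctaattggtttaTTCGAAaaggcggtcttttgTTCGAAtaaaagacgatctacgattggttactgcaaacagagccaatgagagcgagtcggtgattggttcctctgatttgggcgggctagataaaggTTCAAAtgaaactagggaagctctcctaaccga
Mki67: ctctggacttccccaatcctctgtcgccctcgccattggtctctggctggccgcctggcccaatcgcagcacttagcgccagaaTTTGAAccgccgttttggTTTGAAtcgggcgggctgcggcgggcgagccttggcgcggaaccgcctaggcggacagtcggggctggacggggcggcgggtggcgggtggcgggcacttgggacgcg
Cdk1: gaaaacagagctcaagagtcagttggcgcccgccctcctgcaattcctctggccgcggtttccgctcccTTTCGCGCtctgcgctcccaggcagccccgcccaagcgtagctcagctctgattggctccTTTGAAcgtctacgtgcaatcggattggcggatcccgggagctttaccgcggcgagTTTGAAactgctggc
Ccnb2: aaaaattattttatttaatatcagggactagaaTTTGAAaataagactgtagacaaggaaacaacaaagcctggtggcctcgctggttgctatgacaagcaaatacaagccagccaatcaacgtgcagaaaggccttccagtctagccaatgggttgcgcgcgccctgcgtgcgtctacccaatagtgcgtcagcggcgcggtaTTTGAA
Mcm5: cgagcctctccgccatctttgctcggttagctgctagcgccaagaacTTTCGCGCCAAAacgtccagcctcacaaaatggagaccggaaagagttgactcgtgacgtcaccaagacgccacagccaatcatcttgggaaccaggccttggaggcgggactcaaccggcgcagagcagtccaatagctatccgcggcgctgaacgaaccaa
Mcm6: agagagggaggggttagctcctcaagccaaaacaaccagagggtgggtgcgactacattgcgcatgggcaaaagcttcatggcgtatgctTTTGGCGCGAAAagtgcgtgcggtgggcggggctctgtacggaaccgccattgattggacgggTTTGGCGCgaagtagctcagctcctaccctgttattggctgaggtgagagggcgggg
Rrm2: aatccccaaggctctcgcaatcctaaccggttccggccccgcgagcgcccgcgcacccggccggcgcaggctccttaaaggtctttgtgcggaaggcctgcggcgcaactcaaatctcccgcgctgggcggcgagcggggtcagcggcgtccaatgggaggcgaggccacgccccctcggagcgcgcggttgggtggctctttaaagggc

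A CHR match was found in 18 of 22 mitotic members (81.8%) and in 2 of 12 S phase members (16.7%), against 21.7% of 27025 genes with a window of the same length. In 17 of those 18 mitotic members a match lay within 50 bases of the start. Birc5, Ccnb1, Cenpe and Nusap1 were the mitotic members whose window holds no such letters. E2F letters were found in 4 S phase members (33.3%), all of them helicase subunits (Mcm3, Mcm5, Mcm6 and Mcm7), in 1 mitotic member, Cdk1 (4.55%), and in 2.60% of all genes. The CCAAT box was found in 20 of 22 mitotic members, in 8 of 12 S phase members and in 41.1% of all genes. Matches overlapped each other in Cdca8 (CHR with CCAAT), Mcm5 and Mcm6 (E2F on both strands), Mcm7 (E2F with CCAAT) and Ube2c (CCAAT with CCAAT). These are matches of letters in a window and were not measured as binding sites.

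**Figure D1:**
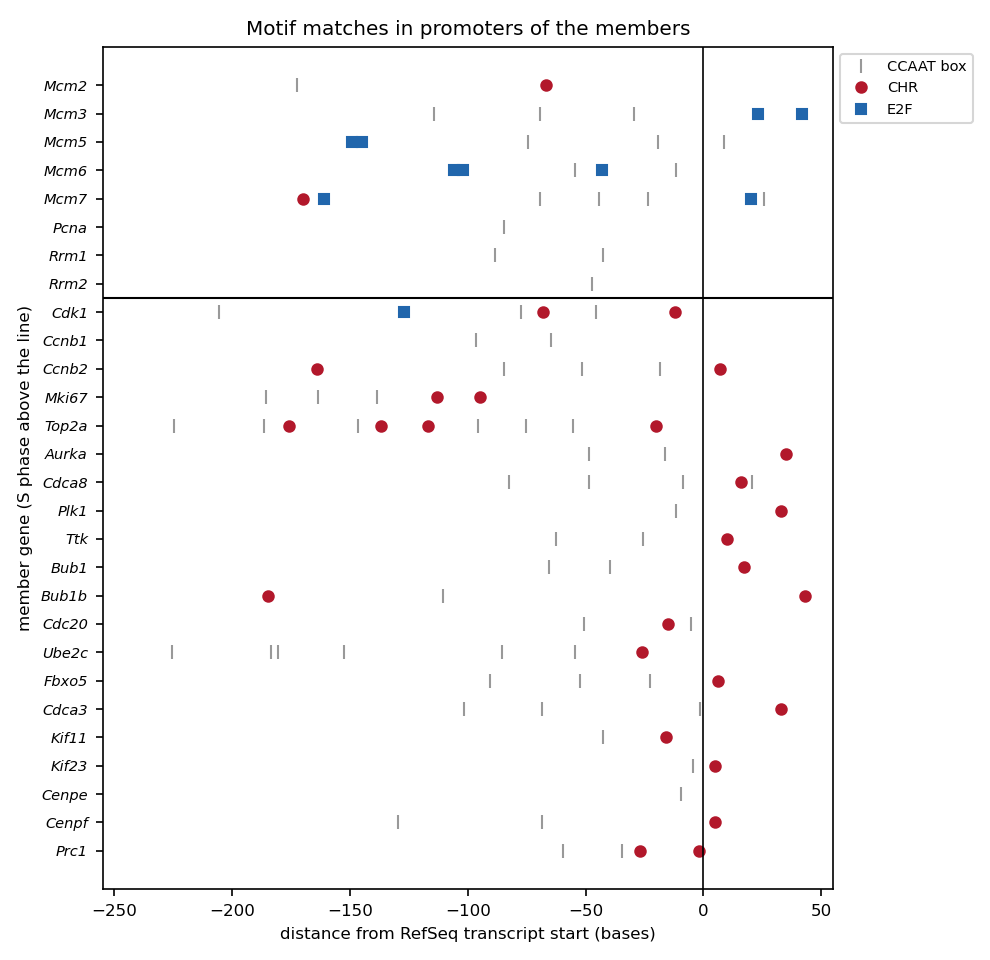
Position of motif matches in the RefSeq promoters of the members, in bases from the transcript start, with 1 line per member that has any match and S phase members above the line. CHR matches (circles) of 17 mitotic members lie within 50 bases of the start, while E2F matches (squares) fall on 4 S phase members and Cdk1.

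The libraries held 33266838 to 62903489 reads assigned to genes, and levels are given as CPM, reads of a gene scaled to a common library size, after TMM scaling. All 10 microglial markers were present in every library. They summed to 39171 to 43734 CPM in Control, 34736 to 38630 CPM at 4 weeks and 31218 to 33944 CPM at 8 weeks. At 8 weeks 4 of them were called lower and 1 higher, against 1.4% and 0.971% of all genes. The same shares apply to the other marker calls given below. The 16 rod markers summed to 13326 to 14825 CPM in Control, 7347 to 10678 CPM at 4 weeks and 4843 to 6083 CPM at 8 weeks, where all 16 were called lower, so rod RNA in the sorted material moved with the groups. Of 10 Müller glia markers, 9 were lower at 8 weeks and 2 were called (Clu and Slc1a3); without Apoe the list summed to 934 to 1395 CPM in Control and 662 to 961 CPM at 8 weeks, while Apoe was uncalled at 1.79 on the log2 scale (adjusted p = 0.0747). The 6 erythroid markers summed to 64.5 and 27.5 CPM in Control 1 and 2 and to at most 0.338 CPM at 8 weeks. The part of these RNAs in the results below was not tested. The 6 B cell markers summed to 760 to 923 CPM in Control, 869 to 995 CPM at 4 weeks and 892 to 1017 CPM at 8 weeks. Of these, 4 passed the filter, and all 4 were above 0 at 8 weeks, against 49.4% of all genes, with none called. The 8 endothelium markers summed to 15.7 to 36.2 CPM. The part of both lists in the results was not tested either. The 8 neutrophil markers summed to at most 0.368 CPM in any library, and the 8 monocyte markers to 12.9 to 58.3 CPM. Of the monocyte markers, Ms4a4c, Plac8 and Ccr2 had reads in every library (means of 18.9, 5.98 and 3.43 CPM), and Chil3 had none in 9 libraries. In a library without a read, a count of 0 allows up to 3 reads, or 0.0476 to 0.0932 CPM, which covers counting error only. In bulk libraries such as these, more cells in division and more transcript per dividing cell cannot be told apart.

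At 8 weeks after streptozotocin the summed level of the mitotic members lay above Control in every library, and that of the S phase members did not. The 28 mitotic members summed to 96.9, 59.7 and 115 CPM in the Control libraries, to 165, 133 and 93.8 CPM in 4wk STZ, and to 259, 279, 273 and 130 CPM in 8wk STZ. The 8wk STZ and Control sums did not overlap, the 4wk STZ sums overlapped with those of Control, and 8wk STZ 4 stood far below the other 8wk STZ libraries. The mean sum was 90.7 ± 28.4 CPM (SD, n = 3) in Control and 235 ± 70.7 CPM (SD, n = 4) in 8wk STZ, a ratio of 2.59, and it was 270 CPM, a ratio of 2.98, without 8wk STZ 4. The 14 S phase members summed to 320, 450 and 384 CPM in Control, to 364, 313 and 288 CPM in 4wk STZ, and to 347, 326, 375 and 391 CPM in 8wk STZ, so that all 3 groups overlapped. The mean S phase sum was 384 ± 65.0 CPM (SD, n = 3) in Control and 360 ± 29.1 CPM (SD, n = 4) in 8wk STZ, a ratio of 0.936. That sum leans on its most abundant members: Mcm3, Rrm1, Pcna and Mcm6 had Control means of 96.3, 50.2, 50.1 and 43.6 CPM. Rrm2 and Tk1, whose 8wk STZ and Control values did not overlap, had Control means of 6.43 and 9.88 CPM.

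**Figure D2:**
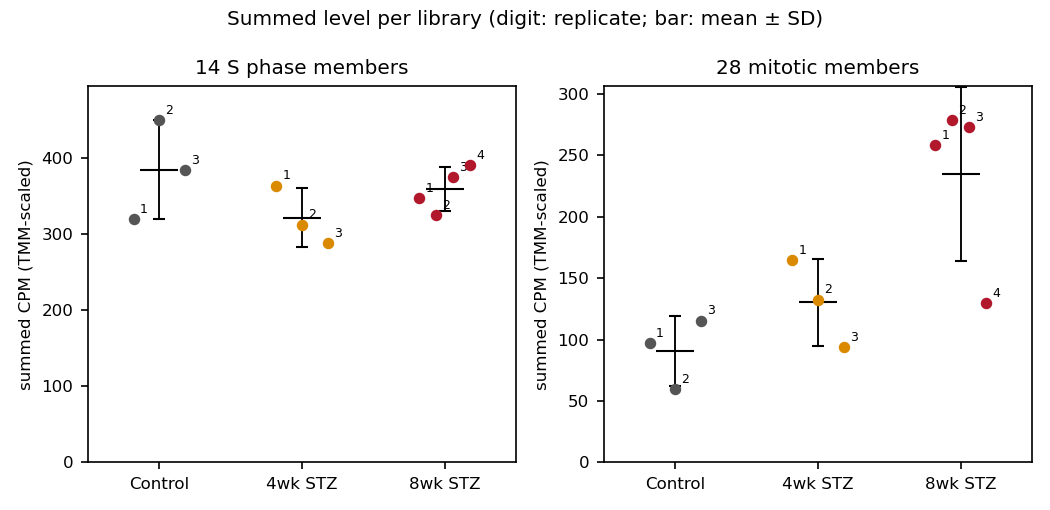
Summed CPM of the 14 S phase members (left) and the 28 mitotic members (right) in each library, where a point is 1 library with its replicate number and the bar is the mean ± SD of the group. The 8wk STZ libraries lie at 130 to 279 CPM in the mitotic panel, above the Control range of 59.7 to 115 CPM, and within the Control range in the S phase panel.

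The ratio of the mitotic to the S phase sum, which does not depend on the scaling between libraries, was 0.303, 0.133 and 0.301 in Control. It was 0.453, 0.425 and 0.326 in 4wk STZ and 0.744, 0.856, 0.728 and 0.332 in 8wk STZ. Every STZ library lay above every Control library in this ratio, by a narrow margin for 4wk STZ 3 and 8wk STZ 4. 8wk STZ 4 had the lowest level of the 8wk STZ libraries for 25 of 28 mitotic members but for 3 of 14 S phase members. That library also had the highest sums of the 9 T and NK cell markers (19.3 CPM, against 0.756 to 5.59 CPM in the other 8wk STZ libraries) and of the 8 border macrophage markers (668 CPM, against 62.4 to 511 CPM). Control 2 was the lowest Control library for 19 of 28 mitotic members and had the highest S phase sum. In 8wk STZ 4, Cd4 made up 12.9 CPM and Nkg7 3.86 CPM of the T and NK cell sum, while Cd3e and Cd3d, which define T cells, were at 0.0168 and 0.101 CPM. Of the 9 markers 3 passed the filter, and Ncr1 had no read in 9 libraries. The part of these markers in the mitotic sums was not tested.

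Of the 42 members, 2 were called higher in 8wk STZ than in Control and none lower (edgeR's quasi-likelihood test, Benjamini-Hochberg adjusted p below 0.05 over all genes), against 0.971% of all genes called higher, 1.4% called lower and 2.37% called in either direction. Both, Fbxo5 and Cdca2, were counted as mitotic members. Fbxo5 and Ccna2 also act from S phase on, and with both counted as S phase members each group held 1 called member, with medians of 0.06 for S phase and 1.33 for mitosis. At an unadjusted p below 0.05, 14 of 28 mitotic and 2 of 14 S phase members were higher and none was lower, against 8.42% of all genes higher. The groups did not overlap for 11 mitotic and 2 S phase members, all of them higher in 8wk STZ, against 8.91% of all genes. The log2 fold change was above 0 for 28 of 28 mitotic members, with a median of 1.36, and for 6 of 14 S phase members, with a median of -0.06. It was above 0 for 49.4% of all genes, with a median of -0.0061, and for 51.2% of the 5841 genes in the abundance range of the mitotic members, with a median of 0.02. The mitotic median was 1.54 without 8wk STZ 4 and 0.97 without Control 2, and 28 of 28 stayed above 0 without either.

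**Figure D3:**
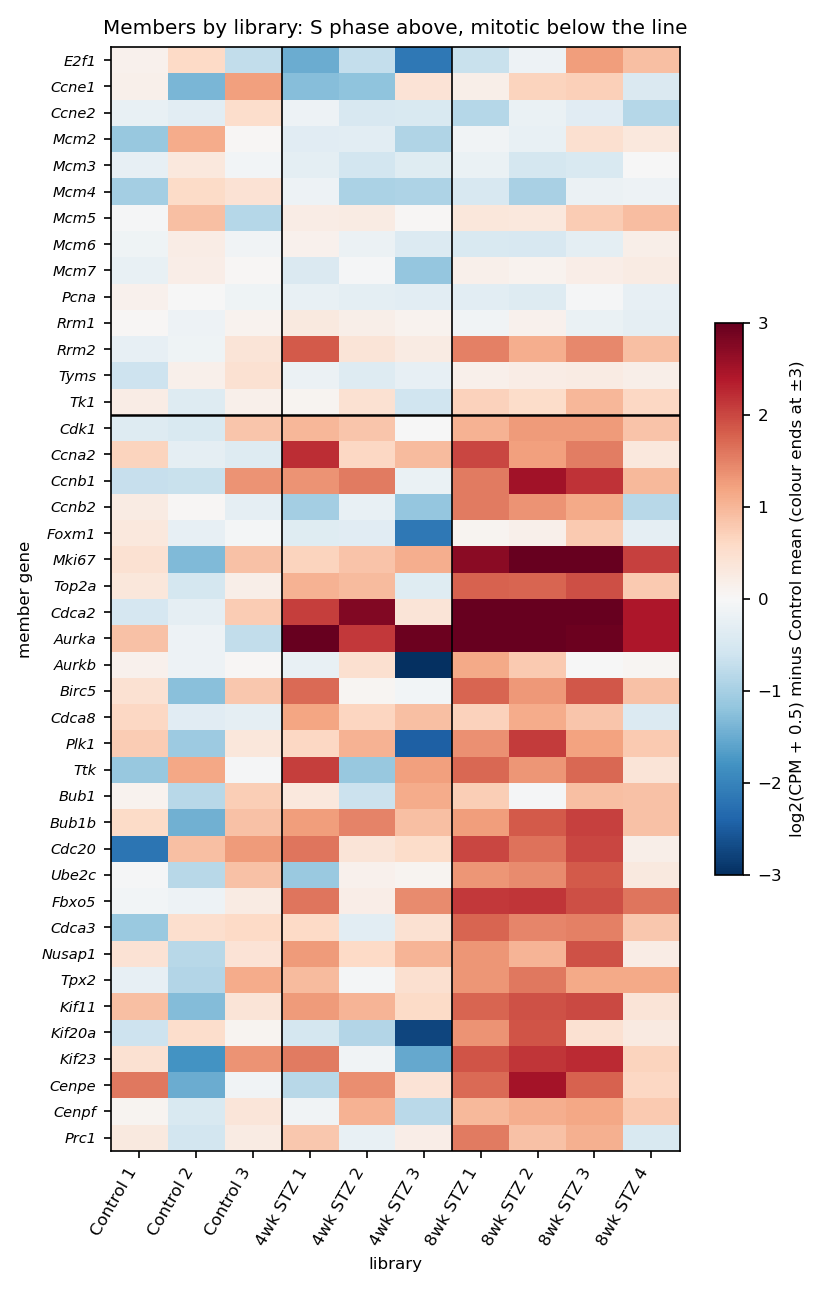
Each member's log2(CPM + 0.5) minus its Control mean in all 10 libraries, with S phase members above the line and mitotic members below it, and colours that end at ±3. The mitotic block is mostly red in 8wk STZ 1 to 3 and paler in 8wk STZ 4, while the S phase block is mixed in every group.

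None of the 3 regulators of S phase entry was called, and their 8wk STZ and Control values overlapped. E2f1, the E2F factor that drives S phase genes, had 896 reads over all 10 libraries and ranged from 0 CPM in 4wk STZ 3 to 4.78 CPM in 8wk STZ 3, with a log2 fold change of 0.53 at 8 weeks. Its 8wk STZ values, from 0.888 CPM up, lay above all 4wk STZ values, of at most 0.850 CPM (log2 fold change 2.79 between the times, SE 1.10, adjusted p = 0.291). Ccne2, a cyclin E gene, had 1869 reads and ranged from 2.41 CPM in 8wk STZ 1 to 7.12 CPM in Control 3, with a log2 fold change of -0.66. Ccne1, the other cyclin E gene, stood at 0.952, 0 and 2.55 CPM in Control, at 0.0415, 0.0622 and 1.24 CPM in 4wk STZ, and at 0.984, 1.56, 1.63 and 0.470 CPM in 8wk STZ. It was uneven within every group, the groups overlapped, and its log2 fold change at 8 weeks was -0.01 (SE 1.40, adjusted p = 0.999). Its direction turned when Control 3, 8wk STZ 1 or 8wk STZ 4 was left out, to 1.28, 0.07 and 0.26.

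The 6 subunits of the replication helicase, which unwinds DNA ahead of the fork, had a median log2 fold change of -0.20 at 8 weeks, and none was called. Mcm3, the member with the most reads, stood at 79.8, 119 and 90.1 CPM in Control, 77.6, 64.3 and 73.4 CPM in 4wk STZ, and 81.9, 65.9, 68.6 and 93.8 CPM in 8wk STZ. All 3 of the 4wk STZ values lay below the Control values, while those of 8wk STZ overlapped with Control (log2 fold change -0.31, SE 0.163, adjusted p = 0.411, 95% interval -0.63 to 0.01). Mcm2 stood at 8.05, 40.5 and 18.7 CPM in Control, at 14.4, 14.6 and 9.64 CPM in 4wk STZ, and at 17.0, 15.7, 25.8 and 22.9 CPM in 8wk STZ. Its Control values spread over more than both STZ groups, and its log2 fold change of -0.14 at 8 weeks (SE 0.430, adjusted p = 0.941) became 0.60 without Control 2. Mcm7 stood at 18.0, 24.2 and 21.7 CPM in Control, at 15.5, 20.6 and 9.14 CPM in 4wk STZ, and at 23.6, 22.8, 24.2 and 24.9 CPM in 8wk STZ. Its 8wk STZ values, with an SD of 0.932 CPM, lay close together and above all 4wk STZ values (log2 fold change 0.66, SE 0.243, adjusted p = 0.256 between the times). Mcm4, with 12636 reads, had both its lowest and its highest value in Control, 15.0 and 45.9 CPM, and a log2 fold change of -0.57 at 8 weeks. Mcm5, with 9448 reads, ranged from 7.75 CPM in Control 3 to 28.2 CPM in 8wk STZ 4 (0.45), and Mcm6, with 19568 reads, from 30.7 CPM in 8wk STZ 2 to 51.0 CPM in Control 2 (-0.25). The Control libraries held the highest value, the lowest value or both for Mcm4, Mcm5 and Mcm6, and neither for Mcm7.

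Among the fork clamp and the enzymes of nucleotide supply, the 2 subunits of ribonucleotide reductase, which makes the building blocks of DNA, differed in their values. Rrm1, the large subunit, stood at 51.4, 45.4 and 54.0 CPM in Control, at 61.0, 56.8 and 53.5 CPM in 4wk STZ, and at 46.5, 54.6, 43.5 and 41.7 CPM in 8wk STZ. These groups overlapped, with a log2 fold change of -0.11 at 8 weeks (SE 0.125, adjusted p = 0.785, 95% interval -0.35 to 0.14). Rrm2, the small subunit that is made anew in S phase, stood at 5.21, 5.72 and 8.37 CPM in Control, at 24.0, 8.41 and 7.53 CPM in 4wk STZ, and at 19.0, 14.0, 18.0 and 12.2 CPM in 8wk STZ. All 8wk STZ values lay above all Control values, and 4wk STZ 1 held the highest value of all, but the log2 fold change of 1.30 at 8 weeks did not pass (SE 0.404, adjusted p = 0.134). Tk1, thymidine kinase, with 6383 reads, was the other S phase member whose 8wk STZ and Control values did not overlap, with 14.5 to 19.7 CPM against 7.31 to 11.4 CPM (log2 fold change 0.72, adjusted p = 0.234). Pcna, the sliding clamp of the replication fork, had 21740 reads and the narrow range of 38.2 to 54.9 CPM, with a log2 fold change of -0.25. Tyms, thymidylate synthase, had 12433 reads and its lowest and highest values in Control, 15.7 and 33.5 CPM, with a log2 fold change of 0.13.

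**Figure D4:**
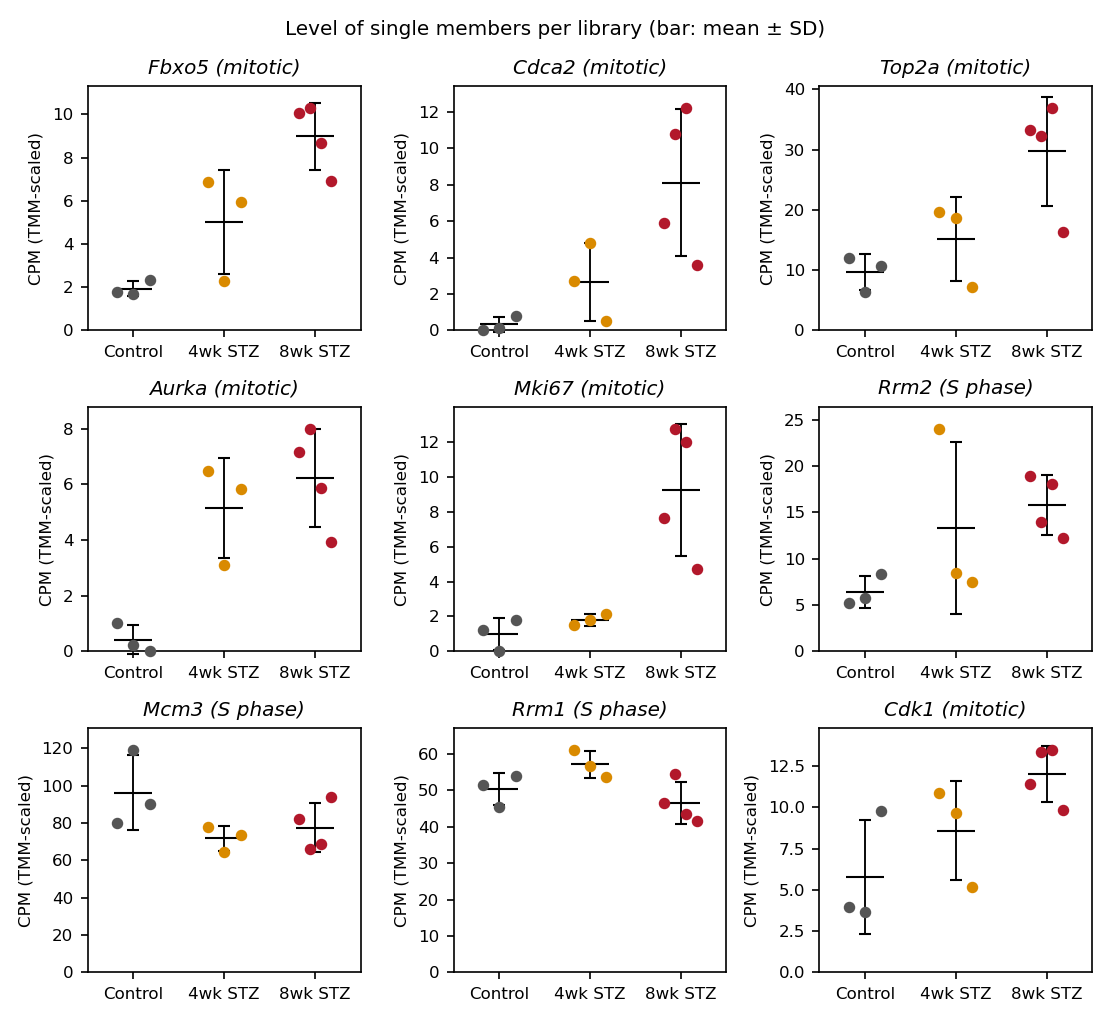
CPM of 9 members in each library, where a point is 1 library and the bar is the mean ± SD of the group. Fbxo5 and Cdca2, the 2 members called at 8 weeks, Top2a, Aurka, Mki67, Rrm2 and Cdk1 have all 8wk STZ points above all Control points, while Mcm3 and Rrm1 overlap.

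Of the mitotic cyclins, their kinase and their activator, 5 of 5 had log2 fold changes above 0 at 8 weeks, with a median of 1.09, and none was called. Cdk1, the kinase that starts mitosis, stood at 3.94, 3.69 and 9.77 CPM in Control, at 10.9, 9.68 and 5.19 CPM in 4wk STZ, and at 11.4, 13.3, 13.5 and 9.87 CPM in 8wk STZ. The 8wk STZ values lay just above the highest Control value (log2 fold change 1.05, SE 0.386, adjusted p = 0.209). Ccnb2, a cyclin B gene, stood at 7.09, 6.12 and 4.81 CPM in Control, at 2.66, 5.06 and 2.36 CPM in 4wk STZ, and at 18.4, 15.8, 13.7 and 3.09 CPM in 8wk STZ. 8wk STZ 1, 2 and 3 were well above all other libraries and 8wk STZ 4 was below every Control library, with a log2 fold change of 1.92 between the times that did not pass (SE 0.537, adjusted p = 0.131). Foxm1, the transcription factor that switches on late cell cycle genes, stood at 2.75, 1.71 and 2.00 CPM in Control, at 1.54, 1.57 and 0.0933 CPM in 4wk STZ, and at 2.28, 2.43, 4.04 and 1.68 CPM in 8wk STZ. Its groups overlapped at 8 weeks (log2 fold change 0.27, SE 0.721, adjusted p = 0.927), and its value was -0.016 without 8wk STZ 3. Ccna2, cyclin A, had 2095 reads and ranged from 1.13 CPM in Control 3 to 9.45 CPM in 4wk STZ 1 (log2 fold change 1.54 at 8 weeks). Ccnb1, the other cyclin B gene, had 3184 reads and ranged from 1.15 CPM in Control 1 to 14.7 CPM in 8wk STZ 2 (1.73).

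The 3 genes of chromosome structure had the highest median of any role at 8 weeks, 3.20 on the log2 scale. Cdca2, a chromosome-bound partner of protein phosphatase 1 on chromosome 14 (67676331 to 67715841, minus strand, GRCm38), stood at 0.0433, 0.135 and 0.798 CPM in Control, at 2.72, 4.79 and 0.498 CPM in 4wk STZ, and at 5.92, 10.8, 12.2 and 3.59 CPM in 8wk STZ. It rose at 8 weeks by 4.61 on the log2 scale (SE 1.05, adjusted p = 0.0483), with every 8wk STZ library above every Control library. That call is thin: it was kept in 2 of the 10 fits that leave out 1 library, without Control 3 or 4wk STZ 3, and the adjusted p reached 0.134 without Control 2. Top2a, the topoisomerase that untangles chromosomes, had the most reads of the mitotic members and stood at 12.0, 6.30 and 10.7 CPM in Control, at 19.7, 18.6 and 7.18 CPM in 4wk STZ, and at 33.3, 32.2, 36.9 and 16.4 CPM in 8wk STZ. All 8wk STZ values lay above all Control values, but the log2 fold change of 1.62 did not pass (SE 0.399, adjusted p = 0.0656). Mki67, which codes for the Ki-67 protein that coats mitotic chromosomes and is used as a proliferation mark, stood at 1.21, 0 and 1.79 CPM in Control, at 1.495, 1.78 and 2.15 CPM in 4wk STZ, and at 7.62, 12.7, 12.0 and 4.70 CPM in 8wk STZ. The 4wk STZ values were near those of Control and the 8wk STZ values above both, with a log2 fold change of 3.20 against Control that did not pass (SE 0.976, adjusted p = 0.126).

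The 8 mitotic kinases, checkpoint proteins and members of the chromosomal passenger complex, which corrects faulty attachments of chromosomes to the spindle, had a median log2 fold change of 1.37 at 8 weeks, and none was called. Aurka, the kinase of the spindle poles, stood at 1.02, 0.248 and 0 CPM in Control, at 6.48, 3.11 and 5.85 CPM in 4wk STZ, and at 7.17, 7.98, 5.85 and 3.93 CPM in 8wk STZ. Both STZ groups lay above all Control libraries, which held 47, 11 and 0 reads of it. The log2 fold change was 3.61 at 4 weeks (SE 0.998, adjusted p = 0.314) and 3.89 at 8 weeks (SE 0.985, adjusted p = 0.0704), and neither passed. Aurkb, the kinase of the passenger complex, had 3352 reads and ranged from 0.249 CPM in 4wk STZ 3 to 12.8 CPM in 8wk STZ 1 (log2 fold change 0.60 at 8 weeks). Birc5 (survivin), its partner, had 2844 reads and ranged from 0.743 CPM in Control 2 to 10.3 CPM in 8wk STZ 3, with the 8wk STZ values above all of Control (1.39, adjusted p = 0.339). Cdca8 (borealin), of the same complex, had 3950 reads and ranged from 3.79 CPM in 8wk STZ 4 to 12.4 CPM in 4wk STZ 1 (0.63). The passenger complex genes thus differed in where their extremes lay. Plk1, a kinase of mitotic entry and chromosome attachment, had 2633 reads and ranged from 0.0622 CPM in 4wk STZ 3 to 12.6 CPM in 8wk STZ 2, with 8wk STZ just above Control (1.38, adjusted p = 0.562). Bub1, a checkpoint kinase, had 984 reads and ranged from 0.518 to 3.45 CPM (0.67), and Bub1b, its relative, had 4296 reads and ranged from 0.968 to 16.0 CPM (1.37), each lowest in Control 2. Ttk, the kinase that sets the checkpoint going, was among the members with the fewest reads, 896, and had none in Control 1 and 4wk STZ 2 (1.48, SE 1.49).

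The 4 members of the APC/C and of protein turnover had a median of 1.33 at 8 weeks. Fbxo5, the inhibitor of the APC/C also known as Emi1, lies on chromosome 10 (5799160 to 5805600, minus strand, GRCm38) and stood at 1.77, 1.69 and 2.36 CPM in Control, at 6.85, 2.30 and 5.94 CPM in 4wk STZ, and at 10.0, 10.3, 8.68 and 6.92 CPM in 8wk STZ. Every 8wk STZ library was above every library of the other groups, and 4wk STZ 2 was within the Control range. It rose at 8 weeks by 2.21 on the log2 scale, 4.62-fold (SE 0.393, adjusted p = 0.0176). That call was kept in 7 of the 10 fits that leave out 1 library, and the adjusted p was 0.0645 without Control 1, 0.0693 without Control 2 and 0.0515 without 8wk STZ 1. Ube2c, the enzyme that loads ubiquitin for the APC/C, stood at 2.25, 1.08 and 4.67 CPM in Control, at 0.810, 2.59 and 2.49 CPM in 4wk STZ, and at 6.62, 7.04, 9.59 and 2.94 CPM in 8wk STZ. Its 8wk STZ values lay above all 4wk STZ values (log2 fold change 1.74 between the times, SE 0.613, adjusted p = 0.239) and overlapped with Control through 8wk STZ 4. Cdc20, the activator of the APC/C, had 2598 reads and ranged from 0.0433 CPM in Control 1 to 9.41 CPM in 8wk STZ 3 (log2 fold change 1.13 at 8 weeks). Cdca3, which takes part in the destruction of proteins at mitotic entry, had 2698 reads and ranged from 0.995 CPM in Control 1 to 10.2 CPM in 8wk STZ 1, with 8wk STZ above Control (1.36, adjusted p = 0.213).

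The 8 members of the spindle, the kinetochore and cytokinesis had log2 fold changes of 0.94 to 1.60 at 8 weeks, a narrow range, with a median of 1.21 and none called. They are Nusap1 and Tpx2, which bind spindle microtubules, the motors Kif11, Kif20a and Kif23, the kinetochore proteins Cenpe and Cenpf, and Prc1, which bundles the central spindle. Their reads over all libraries numbered 3462 for Nusap1, 2742 for Tpx2, 1783 for Kif11, 2091 for Kif20a, 1921 for Kif23, 2214 for Cenpe, 3127 for Cenpf and 3810 for Prc1. Nusap1 ranged from 1.73 to 14.5 CPM, Kif11 from 0.248 to 6.69 CPM and Kif23 from 0.0225 to 8.12 CPM, each from Control 2 to 8wk STZ 3. Cenpe ranged from 0.270 CPM in Control 2 to 11.6 CPM in 8wk STZ 2, and Prc1 from 3.24 CPM in Control 2 to 15.7 CPM in 8wk STZ 1. The lowest library of all 5 was therefore Control 2. Cenpf and Tpx2 were the members of this role whose 8wk STZ and Control values did not overlap, with 7.17 to 9.45 CPM against 2.77 to 5.27 CPM for Cenpf and 6.73 to 9.30 CPM against 1.28 to 6.66 CPM for Tpx2. Kif20a ranged from 0 CPM in 4wk STZ 3 to 11.8 CPM in 8wk STZ 2.

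**Figure D5:**
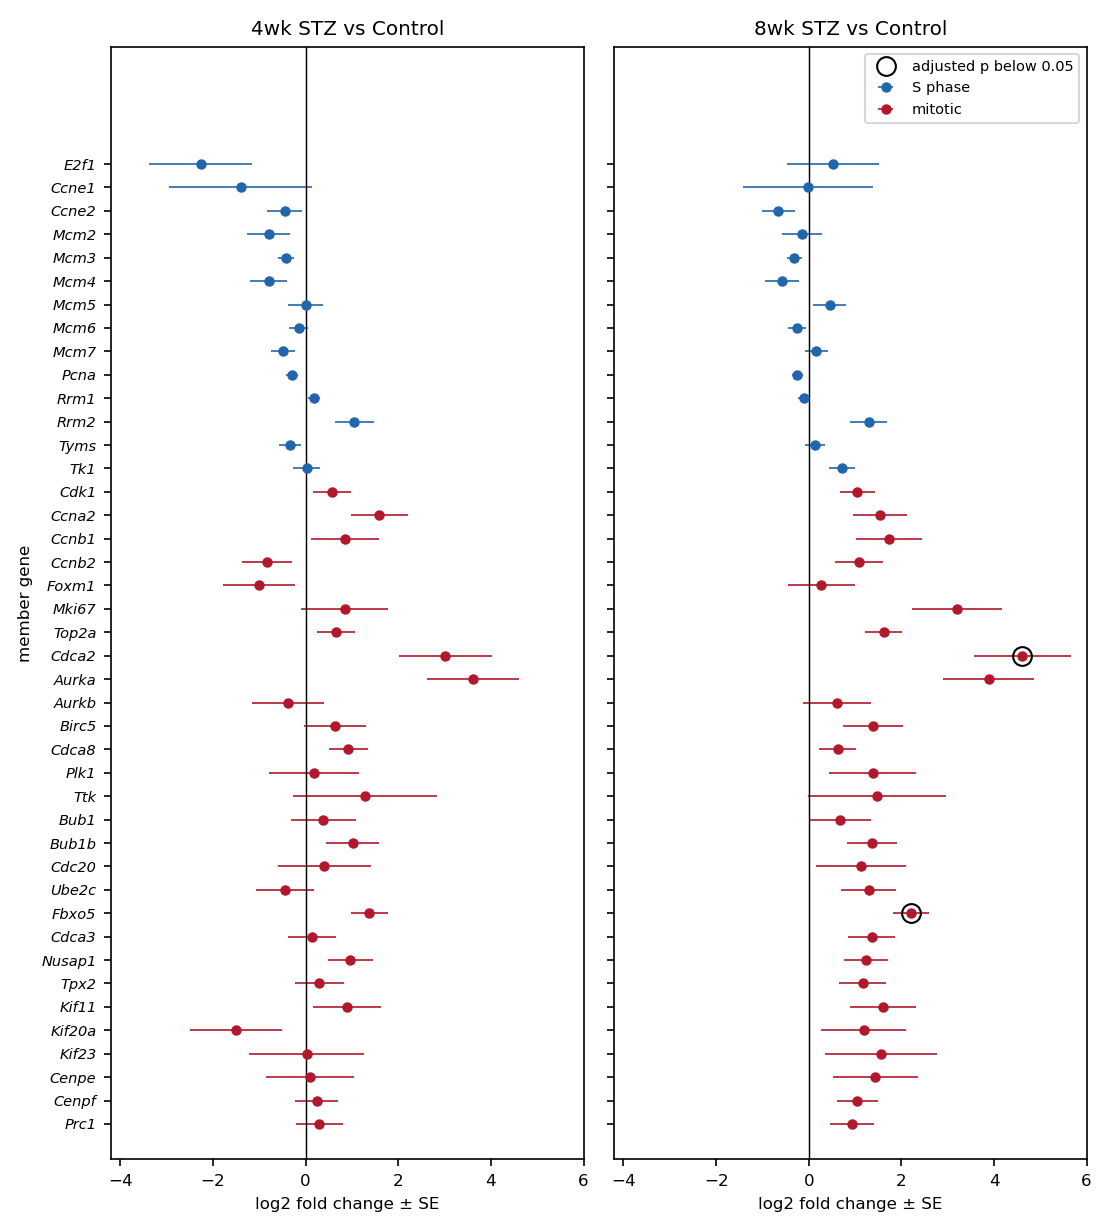
Log2 fold change ± SE of every member against Control at 4 weeks (left) and 8 weeks (right), with S phase members in blue, mitotic members in red and a ring around the 2 members with an adjusted p below 0.05, Fbxo5 and Cdca2 at 8 weeks. All 28 mitotic members lie above 0 at 8 weeks and 23 of 28 at 4 weeks.

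Members differed in how even they were among animals. The median coefficient of variation over the libraries of a group was, from Control over 4 to 8 weeks, 0.309, 0.207 and 0.210 for the S phase members and 0.651, 0.531 and 0.415 for the mitotic members. The mitotic members were also less abundant, with a median of 5.16 CPM over all libraries against 19.7 CPM for the S phase members. Per kilobase of exon, the median level over all libraries was 4.52 CPM for the S phase members and 1.51 CPM for the mitotic members. The part of abundance in the coefficients of variation was not tested. Of the mitotic members 4 (Aurka, Kif20a, Mki67 and Ttk), and of the S phase members 2 (Ccne1 and E2f1), had at least 1 library without a read.

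At 4 weeks no member was called against Control, and edgeR's quasi-likelihood test called 0 of all genes (0%). At an unadjusted p below 0.05, 4 mitotic and 1 S phase members were higher and 2 S phase members were lower, against 9.75% of all genes in either direction. The groups did not overlap for 7 members, 4 of them higher, against 12.3% of all genes and 6.07% higher. The log2 fold change was above 0 for 23 of 28 mitotic members, with a median of 0.48, and for 3 of 14 S phase members, with a median of -0.38, against 49.6% and a median of -0.0039 for all genes. The smallest p-values were those of Aurka, given above, Fbxo5 (log2 fold change 1.37, SE 0.399, adjusted p = 0.316) and Cdca2 (3.01, SE 1.01, adjusted p = 0.378). DESeq2 called 2 members at 4 weeks, Aurka and Cdca2, against 1.66% of all genes, edgeR's likelihood ratio test called Aurka, against 1.29%, and limma-voom called none, as of all genes (0%). The mitotic median was 1.00 without Control 3, the library with the highest mitotic sum in that group.

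Between 4 and 8 weeks no member was called, against 0.918% of all genes by the same test (0.396% higher and 0.522% lower). At an unadjusted p below 0.05, 10 members were higher at 8 weeks, 7 of them mitotic, and 1, Rrm1, was lower, against 13.7% of all genes. The groups did not overlap for 13 members, all of them higher at 8 weeks and 6 of them S phase members, against 8.39% of all genes higher. DESeq2 called 5 members (Ccnb2, Kif20a, E2f1, Mki67 and Ube2c), against 5.3% of all genes, the likelihood ratio test called Ccnb2, against 4%, and limma-voom called none, against 1.1%. The median log2 fold change was 0.85 for the mitotic and 0.35 for the S phase members, with 26 of 28 and 11 of 14 above 0, against 50% of all genes. The comparisons at 4 and at 8 weeks share the Control libraries, and both comparisons of 8wk STZ share those libraries, so their values are given side by side only. In the authors' deposited table, 5 mitotic members (Cdca2, Fbxo5, Aurka, Top2a and Mki67) and 1 S phase member (Rrm2) had an FDR below 0.05 at 8 weeks, all higher, against 7.29% of the 14475 genes in it, and Aurka alone had one at 4 weeks, against 0.801%.

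Other genes of the pathway were counted in lists of their own. Of 41 other mitotic genes, 39 had a log2 fold change above 0 at 8 weeks, against 49.4% of all genes. Their median was 0.94, and none was called, against 2.37% of all genes. At an unadjusted p below 0.05, 13 of these 41 were higher and 1 was lower, against 15.7% of all genes in either direction and 8.42% higher. The lower one was Spc25, of the kinetochore's Ndc80 complex, with 43.2 ± 11.7 CPM in Control and 18.8 ± 7.12 CPM in 8wk STZ (log2 fold change -1.20, adjusted p = 0.0614). The pair with the most reads had log2 fold changes of 0.05 for Pttg1 (securin) and 0.06 for Espl1 (separase). Of 32 other replication genes, 22 were above 0, with a median of 0.18, and none was called, with 0.41 for Slbp, which binds histone mRNA, and 0.29 for Rfc2, of the clamp loader. Of 9 G1 cyclins and their kinases, 6 were above 0, with a median of 0.15 and none called, with -0.09 for Cdk6 and -0.22 for Ccnd1.

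A further list of 15 genes held Cdk inhibitors, the pocket proteins of the retinoblastoma family, E2f4 and the core of the MuvB complex. Of these 15, 1 was called at 8 weeks, and it was higher, against 0.971% of all genes called higher and 2.37% in either direction. Cdkn1a, the Cdk inhibitor p21, rose from 8.33, 10.9 and 11.1 CPM in Control to 22.1, 22.0, 18.8 and 34.5 CPM in 8wk STZ, with 16.1, 19.0 and 12.2 CPM in 4wk STZ. Its log2 fold change was 1.27 (SE 0.252, adjusted p = 0.0281), and its 8wk STZ and Control values did not overlap. Its highest value was in 8wk STZ 4, the library with the lowest mitotic sum in that group. From Control over 4 to 8 weeks, group means were 10.1, 15.8 and 24.4 CPM for Cdkn1a and 90.7, 130 and 235 CPM for the mitotic sum. A link between them was not tested. E2f4, a repressor of the E2F family, stood at 41.4, 52.5 and 49.2 CPM in Control, at 34.4, 30.4 and 29.2 CPM in 4wk STZ, and at 47.1, 57.8, 53.5 and 47.4 CPM in 8wk STZ. It rose between 4 and 8 weeks by 0.72 on the log2 scale (SE 0.133, adjusted p = 0.0377), and its 4wk STZ values lay below those of both other groups.

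Some members overlap other genes in the annotation, and how reads there were counted is not known. Of the exonic bases of Kif20a, 29.3% overlap Cdc23 on the opposite strand, of Ube2c 22.8% overlap Tnnc2, which had 2 reads in all, of Ccne2 17.4% overlap Ints8, of Ccna2 12.5% overlap Exosc9 and of Prc1 11.1% overlap Rccd1. These shares of bases do not bound the error in the counts, which also depends on the reads of the other gene. Over all libraries Cdc23 had 20525 reads against 2091 for Kif20a, and Exosc9 had 13237 against 2095 for Ccna2. Ints8 had 5899 reads against 1869 for Ccne2, and Rccd1 had 639 against 3810 for Prc1. Sharing of reads was not tested. The exons of Fbxo5, Cdca2, Aurka and Mki67 overlap no exon of another annotated gene. Annotated pseudogenes also held reads: Ccnb2-ps held 8.64% as many reads as Ccnb2, Pcna-ps2 5.03% as many as Pcna, Ccnb1-ps 1.73% as many as Ccnb1 and Tyms-ps 0.724% as many as Tyms.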

How the data were processed

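The authors deposited whole-number raw read counts per gene and a table of their own comparisons, which per the file headers holds log2 fold changes and mean log2 CPM, a likelihood ratio score, p-values and FDR. Tools in the submitters' processing notes are STAR, bcl2fastq, Salmon, Subread featureCounts, limma and edgeR, with GRCm38 as the build. For the annotation, the strand setting and multi-mapping reads, the sources used here give nothing. Per the labels' protocols, libraries were made from low-input total RNA with amplified cDNA.

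Here, 287 repeated identifiers of 55774 entries were dropped. Counts were filtered (filterByExpr by group) and TMM-scaled, then entered edgeR 4.0.16 (R 4.3.3). The design had a mean for each group and all 10 libraries (7 residual degrees of freedom, biological coefficient of variation 0.564), with robust quasi-likelihood F-tests and Benjamini-Hochberg adjustment over all 18957 genes tested. Genes were called at 0.05. The fit was tested on simulated data. Alternatives used limma 3.58.1, DESeq2 1.42.0, other scalings, filters and sets of libraries. Numeric columns not used: 1. Full values are given for called members, the 6 smallest and 3 largest p at 8 weeks, the 3 smallest in each other contrast and the 2 of each phase with the highest CPM. Of other lists, called genes or else the 2 with the highest CPM are named, and Spc25, chosen after its value was seen. Members and lists were chosen with earlier results of these data known. Gene positions and exon lengths are from GENCODE vM21 (GRCm38), promoters from RefSeq (GRCm38.p6).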

Additional observations from a re-analysis of the deposited data

Results flagged for a closer look

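The summed level of the 28 mitotic members in 8wk STZ 4 was 129.69 CPM, far below the 259 to 279 CPM of the other 8wk STZ libraries: the gap to the nearest library was 0.864 of the range of the group, past the limit of 0.829 for 4 libraries. Of 45 sums and members checked in this way in 8wk STZ, this was the 1 that stood out, and chance alone marks about 1 in 20.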

How the results depend on the processing

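The mitotic median at 8 weeks stayed above 0 under every alternative run, from 0.97 to 1.66. All 28 mitotic members stayed above 0, except without 8wk STZ 3 (27, with Foxm1 at -0.016). Calls depended on the fit. With 1 library left out, genes called numbered 0 to 1 at 4 weeks, 206 to 462 at 8 weeks and 13 to 118 between the times, and members called 0 to 0, 0 to 3 and 0 to 1. Medians then ran from -0.03 to 0.44 (all members), -0.57 to -0.27 (S phase) and 0.29 to 1.00 (mitotic) at 4 weeks, from 0.90 to 1.31, -0.15 to 0.04 and 0.97 to 1.66 at 8 weeks, and from 0.48 to 0.90, 0.25 to 0.53 and 0.60 to 1.16 between the times. DESeq2 called 314, 1451 and 1004 genes and 2, 6 and 5 members in these contrasts. The likelihood ratio test called 244, 1166 and 759 genes and 1, 6 and 1 members. Without the filter, 12 of 36276 genes were called at 4 weeks, 506 at 8 weeks and 277 between the times. Members called there numbered 4 at 8 weeks and 1 between the times. The stricter filter gave 584 of 14445 genes and 4 members at 8 weeks, and 294 genes between the times. Fits of only the groups compared gave 463 of 18058 genes and 4 members at 8 weeks. They gave 100 of 18076 genes and 1 member between the times. Without Control 3 and 4wk STZ 3 together, 275 genes were called at 8 weeks and 6 between the times, and the mitotic median at 4 weeks was 1.11. Limma-voom gave an S phase median of 0.15 at 8 weeks. Ccne1 at 8 weeks turned to 1.28 without Control 3, alone or with 4wk STZ 3, to 0.07 without 8wk STZ 1, 0.26 without 8wk STZ 4, 1.46 with the block, 0.12 with library totals and 1.64 in limma-voom, and Mcm2 to 0.60 without Control 2 and 0.13 in limma-voom. With 1 library left out, values at 8 weeks ran from -0.016 to 0.49 for Foxm1, -0.54 to 0.60 for Mcm2 and -0.59 to 1.28 for Ccne1. The cause was not tested. Library totals as the only scaling moved the median of all genes at 8 weeks from -0.0061 to 0.10 and the calls from 184 higher and 265 lower to 356 higher and 183 lower, and upper-quartile scaling gave 151 higher and 337 lower.

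Replicate numbers are shared between groups, but no label says that they pair animals. Deviations of same-numbered libraries correlated at -0.0297 to 0.0348, and those of differently numbered libraries at -0.0393 to 0.0394. Correlations this small cannot tell whether the numbers pair the animals. With the replicate number as a block, 44 genes and 0 members were called at 8 weeks and 0 genes between the times, and 8wk STZ 4, alone in its block, drops out of the contrast. Members with few reads in Control, such as Cdca2 and Aurka, have wide errors.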
